A study of Arabidopsis thaliana with 9 samples.

Results

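The genes described here are the glutathione transferases (GSTs) and the UDP-glycosyltransferases (UGTs) of *Arabidopsis thaliana* that could be followed on the ATH1 array, a chip on which each transcript is reported by a probe set, a group of short oligonucleotides. Members were taken from the platform annotation where a probe set was assigned to 1 gene and the symbol began with GSTU, GSTF, GSTZ, GSTT, GSTL or DHAR, or was UGT followed by digits and a letter. This gave 60 genes, 13 GSTs and 47 UGTs, of 13350 genes with a probe set of their own, and each of the 60 had a single probe set. The GSTs comprised 11 of the tau class (GSTU), *GSTF4* of the phi class and *GSTL3* of the lambda class, and the UGTs fell into 11 numbered families. In a RefSeq gene table (assembly TAIR10.1) 108 symbols follow the same pattern, 50 GSTs and 58 UGTs, so that most GSTs were not analysed here. A further 3 probe sets that list several genes, among them *UGT73B2* with *UGT73B3*, *UGT71D1* and *UGT89B1*, were left out.

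GSTs join the tripeptide glutathione to reactive or toxic molecules, and some of them carry or reduce glutathione-bound compounds. UGTs transfer a sugar from a UDP-sugar to small molecules, and in plants these acceptors include flavonoids, lignin precursors and the hormones abscisic acid (ABA), auxin, cytokinin and salicylic acid. Glycosylation usually makes the acceptor more soluble and inactive, and conjugates of both enzyme families are commonly moved to the vacuole.

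Transcripts were measured in mature leaves of 45-day-old transgenic plants (Col-0 background and soil-grown where the paper states it, for *MeGRXC15*-OE and vector) kept at 22 °C with 12 h of light and no stress treatment, on 3 arrays in each of 3 groups. The *MeGRXC15*-OE plants (MeGRX232-OE in the deposited labels) overexpressed a cassava CC-type glutaredoxin, a small glutathione-dependent oxidoreductase, as a GFP fusion under the 35S promoter, which drives expression in most cells and not in the leaf alone. The MeGRX360-OE plants are named by the labels alone, and their construct and the fusion it carries are not spelled out. Control plants carried the empty *pG1300* vector, the backbone of the *MeGRXC15* construct. Lines 3, 9 and 12 of *MeGRXC15*-OE, each a separate homozygous line, gave 1 array each, as did lines 5, 11 and 20 of MeGRX360-OE, whereas the vector arrays are numbered 1 to 3 and their lines are not spelled out. The paper does not use the name MeGRX360. The last digits of its gene model would match it to MeGRXC18, another cassava CC-type glutaredoxin, which is an inference and not a statement of the labels or the paper. The cassava transgenes have no probe set on an *Arabidopsis* array, so the labels could not be checked against the overexpressed gene. Values are intensities on a linear scale, fold changes are differences of mean log2 intensity with their standard error (SE), and a gene is said to rise or fall only where its limma p-value, adjusted by Benjamini-Hochberg over 22746 probe sets, was under 0.05. Both overexpression groups were compared with the same 3 vector arrays, so these comparisons are not independent, and 3 arrays a group limit the precision.

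Array medians lay between 28.0 and 30.0. The ratio of the GAPDH probe sets at both transcript ends, which increases when RNA is degraded, was 16.1 in MeGRX360-OE line 5 and 8.96 to 11.1 on the other arrays. The ubiquitin ratio was also highest in line 5, at 3.12 beside 2.15 to 2.89, whereas the actin ratio, at 14.8 in line 5 and 12.0 to 20.1 on the others, did not set it apart. For 25S rRNA the vector arrays read 279 to 350, *MeGRXC15*-OE arrays 430 to 616 and those of MeGRX360-OE 853 to 1073. Of 14 leaf mesophyll markers 3 were measured, *RCA*, *PRK* and *LHCB4.1*, with sums over the 3 of 19501 to 21348 in vector leaves, 14125 to 16172 where *MeGRXC15* and 18020 to 19773 where MeGRX360 was overexpressed. They did not move together. *RCA* had log2 changes of -0.57 (adjusted p = 0.00328 from limma) in *MeGRXC15*-OE and -0.30 (adjusted p = 0.0676) in MeGRX360-OE. For *PRK* they were -1.09 (adjusted p = 5.38e-04) and -0.51 (adjusted p = 0.0255). *LHCB4.1* passed in neither, with 0.08 (adjusted p = 0.821) and 0.43 (adjusted p = 0.182). The guard cell marker *FAMA*, 1 of 4 listed, had -0.10 (adjusted p = 0.753) and -0.02 (adjusted p = 0.951). The root markers *PYK10* and *EXPA7* stayed between 5.14 and 18.5 on all 9 arrays. *GI*, a clock gene that peaks late in the day, read 45.6 to 72.2, 171 to 301 and 139 to 154 in the same order, and the hour of harvest is not given. The values of 25S rRNA, *GI*, *PRK* and, in *MeGRXC15*-OE, *RCA* differed between the groups together with the GST and UGT genes. Their part in the results, and that of the transcript end ratios, was not tested. In whole leaves, fewer cells of one type and less RNA in each cell cannot be told apart.

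In *MeGRXC15*-OE against vector leaves, 20 of the 60 genes (33.3%) changed, 10 higher and 10 lower, where 22.0% of all probe sets did (9.22% higher and 12.8% lower). The GSTs that changed were all lower, 3 of 13, and among the UGTs 10 of 47 rose and 7 fell. In MeGRX360-OE against vector leaves 14 of 60 (23.3%) changed, 7 higher and 7 lower, beside 16.5% of all probe sets (6.74% higher and 9.72% lower). There 1 GST rose and 2 fell, and 6 UGTs rose and 5 fell. The medians of the 60 log2 changes were -0.01 and 0.03 against medians of 0.00 and 0.01 over all probe sets. The arrays of both groups did not overlap for 30 genes in *MeGRXC15*-OE and for 23 in MeGRX360-OE, beside 37.1% and 35.4% of all probe sets. By a fold over 2 with an unadjusted p under 0.05, 1 GST and 14 UGTs were called in *MeGRXC15*-OE, and 2 GSTs and 10 UGTs in MeGRX360-OE, beside 11.8% and 8.63% of all probe sets. By the adjusted p, 23.1% of GSTs were called in each comparison, and 36.2% and 23.4% of UGTs in *MeGRXC15*-OE and MeGRX360-OE. The GST share in *MeGRXC15*-OE was near the background of 22.0%, and the other shares lay above theirs. Whether any share differs from the background was not tested. Counts by family and by list below are of few genes and have these same shares of all probe sets as background.

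**Figure D1:**
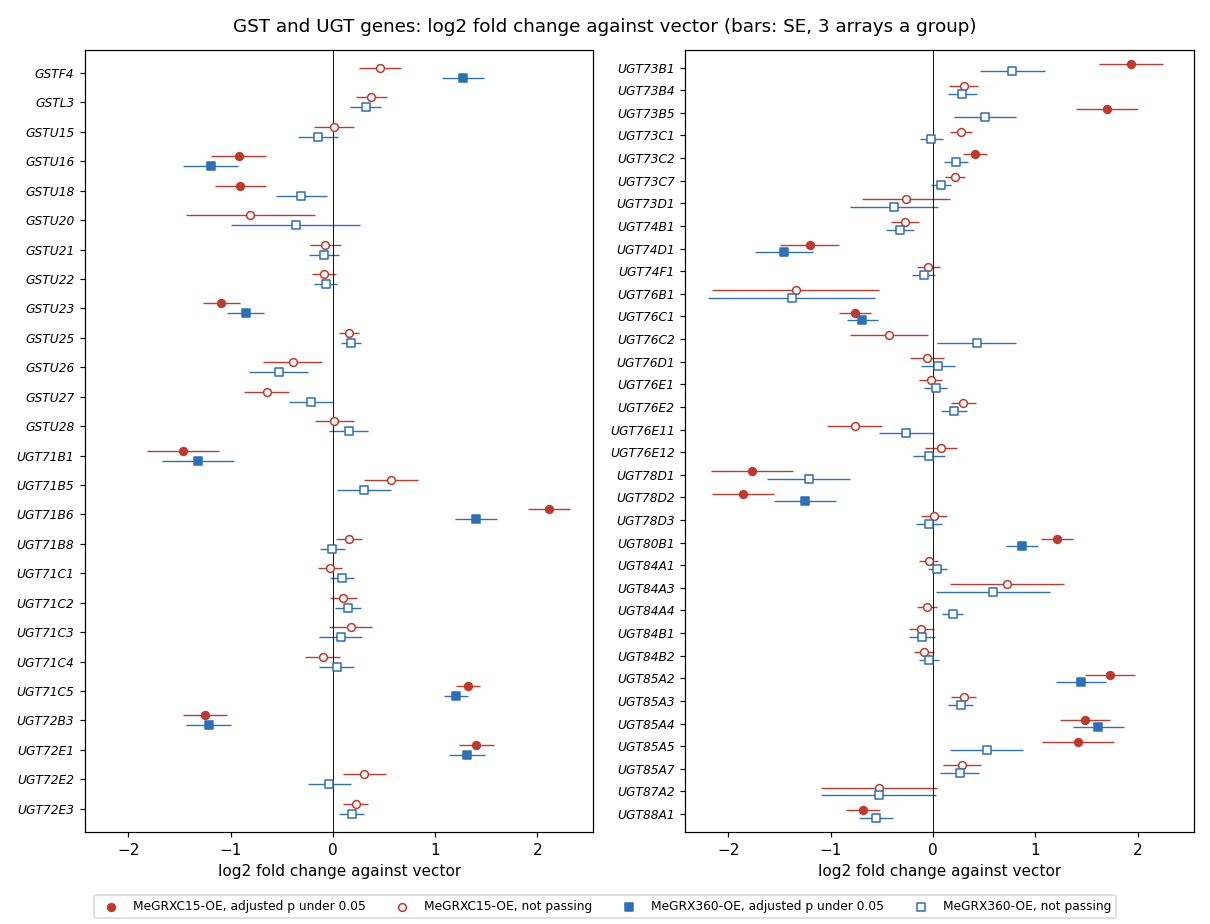
Log2 fold change against vector (x axis) of all 60 genes (y axis) in *MeGRXC15*-OE (red circles) and MeGRX360-OE (blue squares), with bars for the SE (3 arrays a group) and filled symbols where the adjusted p was under 0.05. In *MeGRXC15*-OE the changes run from -1.86 for *UGT78D2* to 2.11 for *UGT71B6*, and in MeGRX360-OE from -1.46 for *UGT74D1* to 1.62 for *UGT85A4*.

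Set side by side, 6 genes rose in both overexpression groups, 7 fell in both, and no gene rose in one and fell in the other. Another 4 rose and 3 fell with a call in *MeGRXC15*-OE alone, *GSTF4* rose with a call in MeGRX360-OE alone, and 39 were called in neither. Both comparisons used the same 3 vector arrays, which favours shared directions for any gene. The share of all probe sets called in both was not counted, so these counts show no trait particular to the 60 genes. A call in one group alone does not show that the groups differ. In the direct comparison of *MeGRXC15*-OE with MeGRX360-OE, 0 of 60 genes passed the limma test (0.145% of all probe sets did), 8 had an unadjusted p under 0.05 beside 13.5% of all probe sets, 2 UGTs had a fold over 2 as well beside 2.15%, and for 45 of 60 the 95% interval of the log2 difference lay within -1 and 1.

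Among the GSTs the falls were in the tau class, to which 11 of the 13 belong. This class is particular to plants and known for detoxifying herbicides and other electrophiles. *GSTU16* read 353, 203 and 364 in *MeGRXC15*-OE lines 3, 9 and 12, 179, 277 and 296 in MeGRX360-OE lines 5, 11 and 20, and 672, 502 and 521 on the vector arrays. All 6 overexpression arrays lay below all 3 vector arrays. The log2 change was -0.92 (SE 0.27, adjusted p = 0.0396 from limma) in *MeGRXC15*-OE and -1.19 (SE 0.27, adjusted p = 0.0177) in MeGRX360-OE. *GSTU23* was dim on every array but separated the groups in the same way, with 9.52, 9.04 and 12.4 in *MeGRXC15*-OE, 10.6, 12.1 and 13.6 in MeGRX360-OE and 24.5, 24.1 and 17.3 in vector leaves. The log2 changes were -1.09 (SE 0.18, adjusted p = 0.00296) and -0.85 (SE 0.18, adjusted p = 0.0138).

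*GSTU18* read 348, 303 and 184 in *MeGRXC15*-OE, 372, 479 and 377 in MeGRX360-OE and 412, 501 and 616 in vector leaves. The *MeGRXC15*-OE arrays were below those of both other groups, whereas the MeGRX360-OE and vector arrays overlapped. Its log2 change was -0.90 (SE 0.25, adjusted p = 0.0301) in *MeGRXC15*-OE and -0.31 (SE 0.25, adjusted p = 0.482) in MeGRX360-OE. The calls of *GSTU16* and *GSTU18* in *MeGRXC15*-OE were the least stable of the GSTs. That of *GSTU16* was lost in 7 of 14 alternatives, with adjusted p = 0.126, 0.0758 and 0.0744 without vector array 1, 2 or 3, 0.0554 without line 3 and 0.0971 without line 9, and that of *GSTU18* in 5 of 14, with adjusted p = 0.0537 without line 12 and 0.0842 and 0.0988 without vector array 2 or 3. In MeGRX360-OE the call of *GSTU16* was lost without vector array 1 (adjusted p = 0.0650), and that of *GSTU23* without vector array 1 or 2 (adjusted p = 0.0534 and 0.0576).

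The remaining 8 tau genes passed no test. *GSTU27* read 270, 505 and 297 in *MeGRXC15*-OE, 533, 443 and 422 in MeGRX360-OE and 555, 514 and 546 in vector leaves. Its lowest intensities were those of *MeGRXC15*-OE lines 3 and 12, and the log2 change of -0.65 (SE 0.22) had an adjusted p = 0.0679. *GSTU15*, *GSTU21*, *GSTU22*, *GSTU25* and *GSTU28* had log2 changes between -0.14 and 0.18 in both comparisons, and *GSTU26*, at intensities of 5.03 to 13.8, had -0.39 and -0.53.

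*GSTF4*, of the phi class, was the 1 GST that rose. It read 12.7, 19.7 and 22.9 in MeGRX360-OE, 8.9, 11 and 10.7 in *MeGRXC15*-OE and 7.4, 8 and 6.83 in vector leaves. The arrays of the 3 groups did not overlap, and all values were low. Its log2 change in MeGRX360-OE was 1.27 (SE 0.21, adjusted p = 0.00424), and in *MeGRXC15*-OE the change was 0.46 (SE 0.21, adjusted p = 0.161). The difference between both overexpression groups was -0.82 (95% interval -1.28 to -0.35, adjusted p = 0.152), and without MeGRX360-OE line 5, the lowest of its group, it reached -1.06 with an adjusted p = 0.0340. *GSTL3*, a lambda-class enzyme that in plants reduces glutathione-bound flavonols, read 1504, 1443 and 1864 in *MeGRXC15*-OE, 1372, 1612 and 1638 in MeGRX360-OE and 1378, 1306 and 1029 in vector leaves. Its log2 changes of 0.38 (SE 0.15, adjusted p = 0.122) and 0.32 (SE 0.15, adjusted p = 0.205) did not pass.

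Glutathione itself is recycled by glutathione reductases, and of the 10 listed genes of glutathione synthesis and recycling both that were measured fell. *GR1*, the cytosolic and peroxisomal enzyme, read 261, 214 and 302 in *MeGRXC15*-OE, 293, 394 and 400 in MeGRX360-OE and 1090, 1083 and 752 in vector leaves. No overexpression array came near the vector range, and the log2 changes were -1.90 (SE 0.20, adjusted p = 3.27e-04) and -1.42 (SE 0.20, adjusted p = 0.00229). *GR*, the reductase of plastids and mitochondria, had log2 changes of -1.48 (SE 0.17, adjusted p = 5.52e-04) and -0.80 (SE 0.17, adjusted p = 0.0152). The glutathione peroxidase-like enzymes, the ABCC pumps that carry glutathione conjugates into the vacuole and the class II TGA factors on the lists had no probe set named here and were not analysed.

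Of the UGTs that attach glucose to ABA, 2 rose in both overexpression groups. *UGT71B6*, an ABA glucosyltransferase, read 31.0, 40.9 and 35.8 in *MeGRXC15*-OE, 27.1, 16.4 and 23.3 in MeGRX360-OE and 9.78, 7 and 8.18 in vector leaves. The 3 groups did not overlap, with *MeGRXC15*-OE highest and vector lowest. It rose 4.33-fold in *MeGRXC15*-OE (log2 2.11, SE 0.21, adjusted p = 2.33e-04) and 2.64-fold in MeGRX360-OE (log2 1.40, SE 0.21, adjusted p = 0.00275). The vector arrays read near 9.14, the lower quartile of all probe sets, so the size of this fold rests on a control near background, and with log2 of intensity plus 16 the change in *MeGRXC15*-OE was 1.09. The difference between both overexpression groups was 0.71 (95% interval 0.24 to 1.18), and its adjusted p = 0.194 did not pass.

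*UGT71C5*, which glucosylates ABA in leaves, read 92.8, 124 and 102 in *MeGRXC15*-OE, 95.5, 96.7 and 99.7 in MeGRX360-OE and 43.3, 40.5 and 43.1 in vector leaves. The overexpression arrays overlapped each other and lay well above the vector arrays. The log2 changes were 1.32 (SE 0.12, adjusted p = 1.66e-04) and 1.20 (SE 0.12, adjusted p = 5.77e-04). *UGT71B8*, a near relative of *UGT71B6*, had log2 changes of 0.16 and -0.00, with adjusted p = 0.439 and 0.992. Of the 6 listed genes for ABA 3 were measured, and 2 rose and 0 fell in each comparison. The calls of *UGT71B6* and *UGT71C5* held in every alternative run.

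A pair of flavonoid glycosyltransferases fell in *MeGRXC15*-OE. *UGT78D2*, which adds glucose to position 3 of flavonols and anthocyanidins, read 46.7, 36.3 and 82.9 in *MeGRXC15*-OE, 70.1, 99.0 and 71.0 in MeGRX360-OE and 212, 219 and 144 in vector leaves. Every overexpression array was below every vector array. It was 3.62-fold lower in *MeGRXC15*-OE (log2 -1.86, SE 0.31, adjusted p = 0.00279) and 2.38-fold lower in MeGRX360-OE (log2 -1.25, SE 0.31, adjusted p = 0.0240).

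*UGT78D1*, the flavonol rhamnosyltransferase, read 39.8, 16.6 and 36.4 in *MeGRXC15*-OE, 39.6, 35.0 and 54.9 in MeGRX360-OE and 101, 153 and 62.0 in vector leaves. Again the vector arrays were the highest, although the third vector array came close to MeGRX360-OE line 20. The log2 change was -1.77 (SE 0.40, adjusted p = 0.0131) in *MeGRXC15*-OE and -1.22 (SE 0.40, adjusted p = 0.0755) in MeGRX360-OE. *UGT78D3*, the flavonol arabinosyltransferase, was dim, at 9.42 to 12.5, with log2 changes of 0.01 and -0.04. The call of *UGT78D1* in *MeGRXC15*-OE was lost without vector array 2 (log2 -1.45, adjusted p = 0.05002). That of *UGT78D2* in MeGRX360-OE was lost in 5 alternatives, with adjusted p = 0.0802 and 0.0894 without vector array 1 or 2, 0.0684 and 0.0832 without line 5 or 20, and 0.0565 with the replicate block. Of 7 listed flavonoid genes 4 were measured, with 0 rising and 2 falling in *MeGRXC15*-OE and 0 and 1 in MeGRX360-OE. The remaining gene measured, *UGT79B1*, is named by another symbol in the annotation and is not among the members. Its log2 changes were 0.93 (SE 0.48, adjusted p = 0.221 from limma) in *MeGRXC15*-OE and 0.10 (SE 0.48, adjusted p = 0.926) in MeGRX360-OE, and neither passed.

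Among the enzymes of lignin precursors and hydroxycinnamates, *UGT72E1*, which glucosylates the aldehydes of monolignols, rose. It read 175, 209 and 152 in *MeGRXC15*-OE, 152, 149 and 205 in MeGRX360-OE and 63.7, 60.9 and 77.9 in vector leaves. Both overexpression groups shared one range, above the vector arrays, with log2 changes of 1.40 (SE 0.17, adjusted p = 7.18e-04) and 1.31 (SE 0.17, adjusted p = 0.00178). Its relatives *UGT72E2* and *UGT72E3*, which also act on monolignols, had log2 changes of 0.31 and 0.22 in *MeGRXC15*-OE and -0.03 and 0.18 in MeGRX360-OE, and none passed. *UGT84A1*, *UGT84A3* and *UGT84A4*, which form glucose esters of sinapate and other hydroxycinnamates, passed no test either, with *UGT84A3* at 0.73 (SE 0.56, adjusted p = 0.433) and 0.58 (SE 0.56, adjusted p = 0.563). In all, 7 of the 9 listed genes were measured, and 1 rose and 0 fell in each comparison.

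*UGT74D1*, which glucosylates auxins, read 63.5, 53.5 and 46.4 in *MeGRXC15*-OE, 27.7, 63.3 and 53.1 in MeGRX360-OE and 130, 141 and 105 in vector leaves. The lowest value was that of MeGRX360-OE line 5, and all 6 overexpression arrays were below the vector arrays. The log2 changes were -1.21 (SE 0.29, adjusted p = 0.0158, or 0.0625 without vector array 2) and -1.46 (SE 0.29, adjusted p = 0.00973). *UGT84B1* and *UGT84B2*, the other auxin glucosyltransferases measured, had log2 changes between -0.11 and -0.04 in both comparisons. Thus 3 of 7 listed auxin genes were measured and 1 fell in each comparison.

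*UGT76C1*, a cytokinin *N*-glucosyltransferase, read 51.5, 47.5 and 36.2 in *MeGRXC15*-OE, 52.7, 48.6 and 40.4 in MeGRX360-OE and 74.7, 74.4 and 78.3 in vector leaves. The vector arrays were tightly grouped above the others, and the log2 changes were -0.76 (SE 0.15, adjusted p = 0.00737) and -0.69 (SE 0.15, adjusted p = 0.0165). The second call was lost without vector array 2 or 3 (adjusted p = 0.0531 and 0.0501) and without line 20 (0.0608). *UGT76C2*, with the same activity, read 23.2, 30.7 and 13.6, then 34.9, 56.3 and 29.3, then 23.3, 22.5 and 45.4 in the same order of groups. Its groups overlapped, and the log2 changes of -0.43 (SE 0.38, adjusted p = 0.507) and 0.42 (SE 0.38, adjusted p = 0.535) did not pass. With *UGT73C1*, at 0.28 and -0.02, 3 of 5 listed cytokinin and brassinosteroid genes were measured, and 0 rose and 1 fell in each comparison.

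*UGT73B5*, a pathogen-responsive gene of redox and salicylic acid-dependent defence, read 43.4, 40.4 and 85.1 in *MeGRXC15*-OE, 20.4, 22.9 and 26.7 in MeGRX360-OE and 22.9, 13.4 and 14.2 in vector leaves. All *MeGRXC15*-OE arrays exceeded the other 6, which overlapped each other. It rose 3.25-fold in *MeGRXC15*-OE (log2 1.70, SE 0.31, adjusted p = 0.00437), with 0.51 (SE 0.31, adjusted p = 0.331) in MeGRX360-OE. *UGT73B1*, of the same group, read 98.8, 72.9 and 38.0 in *MeGRXC15*-OE, 28.2, 32.7 and 26.5 in MeGRX360-OE and 13.6, 17.1 and 20.9 in vector leaves. The groups did not overlap, line 12 being the lowest of *MeGRXC15*-OE, and the log2 changes were 1.93 (SE 0.32, adjusted p = 0.00275) and 0.77 (SE 0.32, adjusted p = 0.146). The differences between both overexpression groups, 1.19 for *UGT73B5* (95% interval 0.50 to 1.89, adjusted p = 0.154) and 1.16 for *UGT73B1* (0.44 to 1.88, adjusted p = 0.175), did not pass, while with array quality weights that of *UGT73B1* did (log2 1.51, adjusted p = 0.0338).

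Of the salicylic acid genes, *UGT74F1*, a salicylic acid glucosyltransferase, read 7.25 to 9.23 on all arrays with log2 changes of -0.05 and -0.09. *UGT76B1*, which conjugates salicylic acid, isoleucic acid and *N*-hydroxypipecolic acid, read 66.8 on vector array 1 and 4.37 to 6.57 on the other 8 arrays. Its log2 changes of -1.34 (SE 0.82, adjusted p = 0.309) and -1.38 (SE 0.82, adjusted p = 0.319) thus rest on a single control array. With *UGT73B5*, 3 of 5 listed genes were measured, with 1 rising in *MeGRXC15*-OE and 0 in MeGRX360-OE.

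The median log2 changes of the UGT73 family were 0.30 in *MeGRXC15*-OE and 0.23 in MeGRX360-OE. Beside 9.22% and 6.74% of all probe sets, 3 of its 7 genes rose in *MeGRXC15*-OE and 0 in MeGRX360-OE. The third, *UGT73C2*, was near the floor of the array, at 7.02, 8.82 and 7.07 against 5.93, 5.80 and 5.43 in vector leaves and 6.41, 7.28 and 6.39 in MeGRX360-OE. Its log2 change of 0.41 (SE 0.12, adjusted p = 0.0387) lost its call in 7 of 13 alternatives, among them without line 3 or 9 (adjusted p = 0.0520 and 0.0994) and without vector array 1, 2 or 3 (0.0766, 0.0981 and 0.114).

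*UGT80B1*, a sterol glucosyltransferase, read 107, 94.9 and 145 in *MeGRXC15*-OE, 90.3, 97.7 and 82.0 in MeGRX360-OE and 50.5, 47.3 and 49.4 in vector leaves. Both overexpression groups lay above the vector arrays, with log2 changes of 1.21 (SE 0.16, adjusted p = 8.94e-04) and 0.87 (SE 0.16, adjusted p = 0.00675). The other sterol glucosyltransferase, *UGT80A2*, is named by another symbol in the annotation and is not among the 60. It read 126, 102.4 and 174 in *MeGRXC15*-OE, 109, 103 and 97.9 in MeGRX360-OE and 76.0, 71.7 and 101.8 in vector leaves. Its log2 changes were 0.67 (SE 0.20, adjusted p = 0.0446) and 0.33 (SE 0.20, adjusted p = 0.343). By these calls 2 of 2 listed sterol genes rose in *MeGRXC15*-OE and 1 in MeGRX360-OE, but the call of *UGT80A2* was not run under the alternatives. *UGT74B1*, which makes the core of glucosinolates by *S*-glucosylation, read 359, 341 and 427 in *MeGRXC15*-OE, 311, 367 and 407 in MeGRX360-OE and 474, 473 and 410 in vector leaves. The log2 changes of -0.27 (SE 0.14, adjusted p = 0.218) and -0.33 (SE 0.14, adjusted p = 0.156) did not pass, and it was the only one of 2 listed glucosinolate genes measured.

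**Figure D2:**
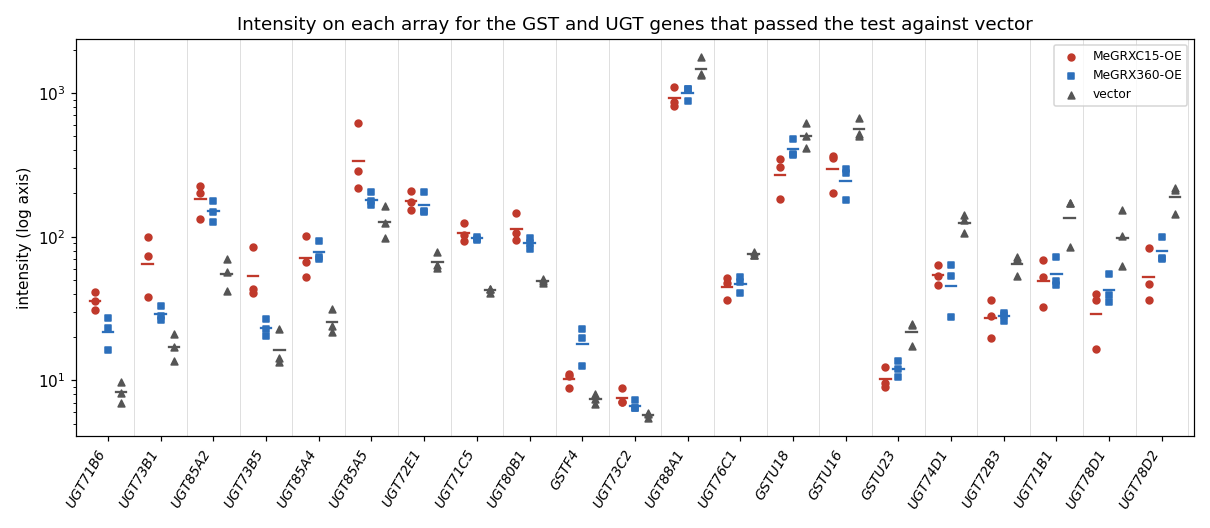
Intensity (log axis) on each of the 9 arrays for the 21 genes that passed the test against vector in at least 1 overexpression group, ordered along the x axis by their change in *MeGRXC15*-OE. Red circles are *MeGRXC15*-OE, blue squares MeGRX360-OE, grey triangles vector and bars the geometric mean of 3 arrays. At the left *UGT71B6* lies at 31.0 to 40.9 in *MeGRXC15*-OE over 7 to 9.78 in vector leaves, and at the right *UGT78D2* at 36.3 to 82.9 under 144 to 219.

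In the UGT85 family 3 of 5 genes rose in *MeGRXC15*-OE and 2 of 5 in MeGRX360-OE, and none of the 5 fell. Of all probe sets 9.22% and 6.74% rose, and whether these 5 genes differ from that was not tested. *UGT85A2* read 132, 225 and 202 in *MeGRXC15*-OE, 178, 127 and 148 in MeGRX360-OE and 42.0, 56.7 and 69.5 in vector leaves. The overexpression arrays were all above the vector arrays, with log2 changes of 1.73 (SE 0.25, adjusted p = 0.00140) and 1.45 (SE 0.25, adjusted p = 0.00521). *UGT85A4* read 67.1, 102 and 52.8, then 72.5, 69.9 and 93.0, then 21.9, 23.7 and 31.5 in the same order. It rose by 1.49 (SE 0.25, adjusted p = 0.00291) and 1.62 (SE 0.25, adjusted p = 0.00322) on this scale.

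*UGT85A5* read 287, 217 and 616 in *MeGRXC15*-OE, 176, 165 and 204 in MeGRX360-OE and 125, 97.2 and 165 in vector leaves. Line 12 stood far above the other *MeGRXC15*-OE lines, and the lowest MeGRX360-OE array equalled the highest vector array to 3 digits. Its log2 change was 1.42 (SE 0.35, adjusted p = 0.0198) in *MeGRXC15*-OE and 0.52 (SE 0.35, adjusted p = 0.391) in MeGRX360-OE. The first call was lost without vector array 1 or 2 (adjusted p = 0.0554 and 0.0787). *UGT85A3* and *UGT85A7* had 0.30 and 0.28 in *MeGRXC15*-OE and did not pass.

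Falls also came from genes whose acceptors are less well known. *UGT71B1* read 52.8, 32.4 and 69.0 in *MeGRXC15*-OE, 49.1, 46.3 and 71.7 in MeGRX360-OE and 172, 172 and 84.5 in vector leaves. The third vector array was much closer to the overexpression arrays than the other two. The log2 changes were -1.47 (SE 0.35, adjusted p = 0.0170) and -1.31 (SE 0.35, adjusted p = 0.0358). The first call was lost without line 9 (adjusted p = 0.05002) or vector array 1 or 2 (0.0609 and 0.0687), and the second in 6 alternatives, among them without vector array 1 or 2 (0.118 and 0.125) and without line 5 or 11 (0.0911 and 0.106).

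*UGT72B3*, a relative of *UGT72B1*, which glucosylates chlorinated phenols and monolignols, read 36.5, 28.3 and 19.6 in *MeGRXC15*-OE, 29.6, 26.1 and 28.4 in MeGRX360-OE and 72.7, 69.8 and 53.6 in vector leaves. Both overexpression groups shared one range below the vector arrays, with log2 changes of -1.25 (SE 0.22, adjusted p = 0.00372) and -1.21 (SE 0.22, adjusted p = 0.00663). *UGT88A1* read 1106, 814 and 860 in *MeGRXC15*-OE, 1062, 885 and 1070 in MeGRX360-OE and 1327, 1348 and 1784 in vector leaves. It was highest in every vector array, and the log2 changes were -0.68 (SE 0.17, adjusted p = 0.0178) and -0.56 (SE 0.17, adjusted p = 0.0522). The call was lost without line 9 (adjusted p = 0.0583) or vector array 3 (0.0556).

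The other 11 UGTs, *UGT71B5*, *UGT71C1*, *UGT71C2*, *UGT73B4*, *UGT73C7*, *UGT73D1*, *UGT76D1*, *UGT76E1*, *UGT76E2*, *UGT76E11* and *UGT76E12*, passed no test. Their log2 changes ran from -0.77 for *UGT76E11* (SE 0.27, adjusted p = 0.0731) to 0.57 for *UGT71B5* (SE 0.27, adjusted p = 0.180) in *MeGRXC15*-OE and from -0.38 for *UGT73D1* to 0.30 for *UGT71B5* in MeGRX360-OE. *UGT73D1*, like *UGT76B1*, was high on vector array 1 alone, at 23.6 against 6.38 to 9.78 on the other 8 arrays, and without that array its log2 changes turned to 0.34 and 0.22.

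**Figure D3:**
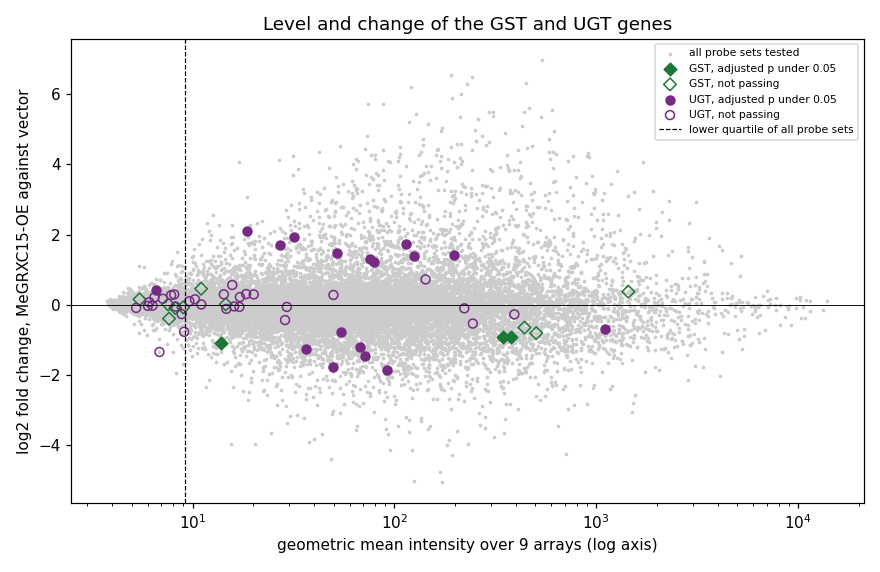
Log2 fold change of *MeGRXC15*-OE against vector (y axis) over the geometric mean intensity of the 9 arrays (log x axis) for all 22746 probe sets (grey), the 13 GSTs (green diamonds) and the 47 UGTs (purple circles), filled where the adjusted p was under 0.05. Left of the dashed line, the lower quartile of intensity at 9.14, lie 18 of the 60 genes, 1 of them filled.

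Low signal limited part of the families. The geometric mean intensity of 18 of the 60 genes was below 9.14, the lower quartile of all probe sets, and of these *UGT73C2* alone passed a test in *MeGRXC15*-OE and 0 did in MeGRX360-OE. Intensities near background can understate a change in transcript level. The 18 comprised 5 GSTs and 13 UGTs, among them *GSTU25*, for which detoxification of the explosive TNT is known, at 4.87 to 6.13 on all arrays.

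Several members lie beside each other in the genome as products of gene duplication. With at most 2 protein-coding genes between neighbours (TAIR10.1 gene order), 37 of the 60 genes formed 15 runs of neighbours. Most of the runs without a call in *MeGRXC15*-OE held a gene below 9.14, the lower quartile of all probe sets, where a missing call says little. In *MeGRXC15*-OE, where 22.0% of all probe sets were called, 0 of the 15 runs had every member called. Of the 15, 7 had none and 1 held genes called in both directions. In this last run *UGT71B1* fell, *UGT71B6* rose and *UGT71B8* was not called, in both overexpression groups. In the run *UGT85A7*, *UGT85A2*, *UGT85A5* and *UGT85A3* the middle genes rose in *MeGRXC15*-OE and *UGT85A2* rose in MeGRX360-OE. *UGT71C5* rose beside *UGT71C4* and *UGT71C3*, whose log2 changes were between -0.10 and 0.17 in both comparisons. *UGT78D2* fell beside *UGT78D3*, and *GSTU23* fell beside *GSTU22*, *GSTU21* and *GSTU20*. Of these neighbours *UGT71C3*, *GSTU21* and *GSTU22* read below the lower quartile, so a different response of theirs cannot be read from the missing call. Whether probes of one neighbour also bind transcripts of another was not tested, and calls of neighbours are not independent where they do.

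**Figure D4:**
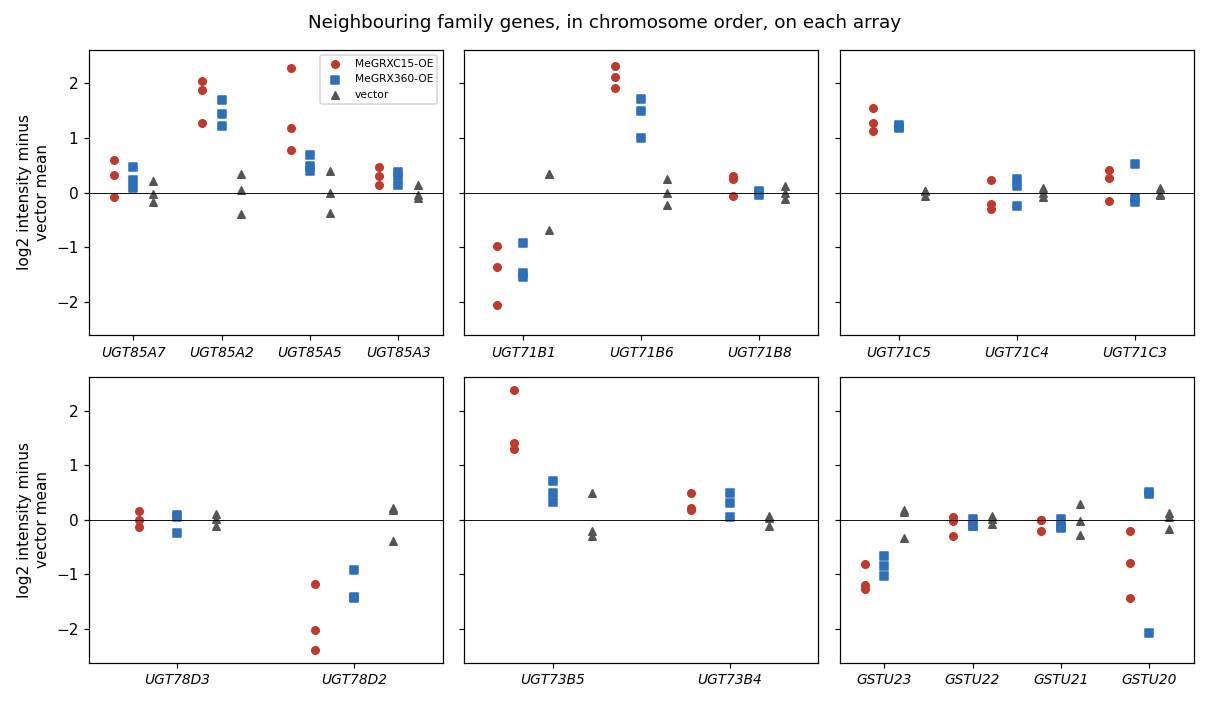
Log2 intensity minus the vector mean (y axis) on each array for 6 runs of neighbouring genes in chromosome order (x axis), with *MeGRXC15*-OE as red circles, MeGRX360-OE as blue squares and vector as grey triangles. *UGT71B1* and *UGT71B6* lie side by side with mean changes of -1.47 and 2.11 in *MeGRXC15*-OE.

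Plants of one group were not alike for every gene. Among the 42 genes above the lower quartile, the median ratio of the highest to the lowest array of a group was 1.43 in *MeGRXC15*-OE, 1.30 in MeGRX360-OE and 1.32 in vector leaves, and the ratio was over 2 for 10, 4 and 5 genes. *GSTU20*, a tau GST that partners the jasmonate-conjugating enzyme JAR1 in far-red light signalling, read 575, 246 and 383 in *MeGRXC15*-OE, 158, 936 and 922 in MeGRX360-OE and 589, 681 and 720 in vector leaves. All *MeGRXC15*-OE arrays lay below all vector arrays. MeGRX360-OE line 5 was 5.94-fold below line 11, and the log2 changes of -0.81 (SE 0.63, adjusted p = 0.444) and -0.36 (SE 0.63, adjusted p = 0.775) did not pass. The SE is shared by the 3 groups, so that of *MeGRXC15*-OE against vector also holds the spread of MeGRX360-OE. The standard deviations of log2 intensity were 0.61 in *MeGRXC15*-OE, 1.48 in MeGRX360-OE and 0.15 in vector leaves. Without line 5 the change in MeGRX360-OE turned to 0.49.

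*UGT84A3* read 163, 112 and 290 in *MeGRXC15*-OE, 67.6, 256 and 229 in MeGRX360-OE and 153, 117 and 65.6 in vector leaves. *UGT87A2*, which influences flowering time, read 220, 254 and 182, then 497, 101 and 203, then 561, 302 and 181. Both genes varied within groups as much as between them. In each of the 4 genes with a ratio over 2 in MeGRX360-OE, line 5, the array whose GAPDH and ubiquitin ratios but not its actin ratio stood out, was farthest from the group median. In *MeGRXC15*-OE line 12 was farthest in 7 of 10 such genes, and among vector arrays the third was in 4 of 5. The part of RNA quality in these differences was not tested.

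**Figure D5:**
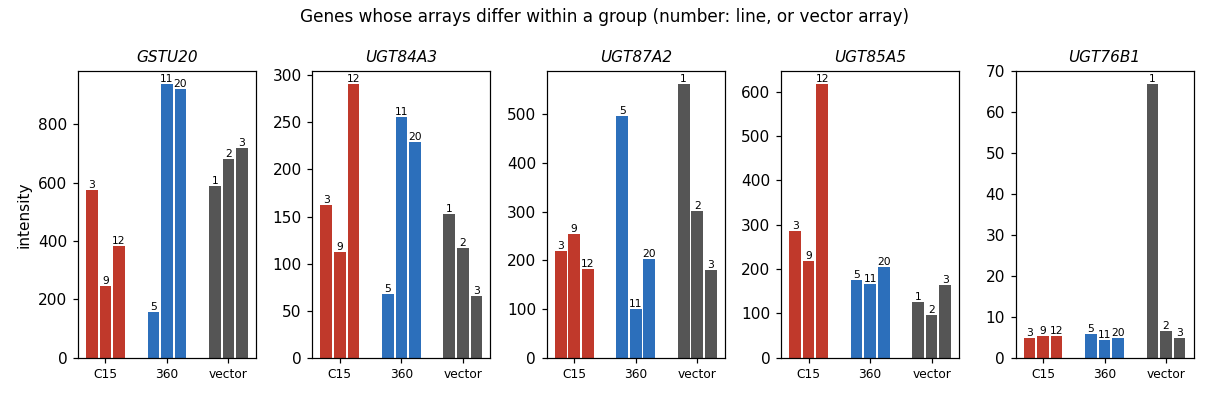
Intensity (y axis, from 0) on each array for 5 genes with unequal arrays within a group, with *MeGRXC15*-OE (C15) in red, MeGRX360-OE (360) in blue and vector in grey, each bar labelled with its line, or with its array number for vector. *GSTU20* stands at 158 in MeGRX360-OE line 5 beside 936 and 922, *UGT85A5* at 616 in *MeGRXC15*-OE line 12, and *UGT76B1* at 66.8 on vector array 1.

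For the direct comparison of both overexpression groups, the genes with the lowest unadjusted p were *GSTF4*, *UGT73B5*, *UGT73B1* and *UGT71B6*, described above, with unadjusted p of 0.00354, 0.00379, 0.00546 and 0.00765 from limma. *UGT73C1*, *UGT85A5*, *UGT84A4* and *GSTU18* followed, with 0.0264, 0.0325, 0.0337 and 0.0404. For *UGT84A4* the 3 vector arrays had the identical value of 28.4451, and this absence of spread enters the SE that the 3 groups share. Of these 8, *GSTF4*, *UGT84A4* and *GSTU18* were lower and the other 5 higher in *MeGRXC15*-OE. None passed after adjustment over all probe sets, the arrays of both groups did not overlap for 9 of the 60 genes beside 16.3% of all probe sets, and the median absolute log2 difference was 0.13 beside 0.15 over all probe sets.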

How the data were processed

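The deposited values are intensities, 1 column an array and 22810 probe sets, which the authors summarised and normalized before deposit. The submitters' processing notes name RMA without a version, and the RMA settings were not given in the sources read. The intensities were linear (3.24 to 15640), so log2 was taken first with no offset. A model for 22746 probe sets (64 controls left out) was fitted in limma 3.58.1 under R 4.3.3, with 1 mean per group over all 9 arrays, and p-values were adjusted by Benjamini-Hochberg over all of them. Probe sets were named by the platform annotation (13513 with 1 gene, 503 with several, 8794 not listed). All 60 members matched a locus of the RefSeq table. Counts were made in Python 3.11.15 (numpy 2.4.6, pandas 2.3.3).

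The members, the 13 gene lists and the tests were chosen with earlier results of these data known. Genes with values in the text were up to 10 largest rises and falls per comparison among called members whose arrays did not overlap, *GSTL3* and *UGT88A1* as the brightest probe sets, and up to 4 of each list. *GSTU15*, *GSTU20*, *GSTU21*, *GSTU22*, *GSTU25*, *GSTU26*, *GSTU27*, *GSTU28*, *UGT71C3*, *UGT71C4*, *UGT71B5*, *UGT73D1*, *UGT76E11*, *UGT85A3*, *UGT85A7* and *UGT87A2* were added after their values were seen. On simulated data for *MeGRXC15*-OE against vector (22746 probe sets), 79 of 100 log2 changes of 1 and 91 of 100 of 2 were recovered, with 11 false calls. The simulation used independent noise and changed a far smaller share of probe sets than the 22.0% called in the data. These rates therefore need not hold for the data. The alternatives tried were median centring, another quantile normalization, log2 of intensity plus 16, dropping the dimmest 40% of probe sets, array quality weights, a robust prior with trend, a fit to the 6 arrays of a comparison, the replicate number as a block, a call by fold over 2 with unadjusted p under 0.05, and dropping each array in turn. Where nothing states separate plants behind an array, p-values measure the spread between these arrays.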

Additional observations from a re-analysis of the deposited data

How the results depend on the processing

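No direction turned among the called genes under the alternatives run. Of the genes not called, 12 of 40 in *MeGRXC15*-OE and 18 of 46 in MeGRX360-OE changed sign in at least 1 alternative, all with log2 changes within 0.26 and 0.53 of 0, among them *GSTU20*, *UGT73D1* and *UGT87A2*. The 3 GSTs called in *MeGRXC15*-OE against vector became 1 with the replicate block and 1 to 3 without 1 array. By a fold over 2 with unadjusted p under 0.05 there was 1. A fit to the 6 arrays compared called 3 GSTs, 1 higher and 2 lower than in vector leaves. The 17 UGTs called in *MeGRXC15*-OE against vector became 22 with array quality weights, 18 with the block and 12 to 18 without 1 array. In MeGRX360-OE against vector the 3 GSTs became 1 without the dimmest 40% of probe sets, a filter that removed *GSTF4* and *GSTU23* and left 5 GSTs, stayed at 3 with the block, and were 1 to 3 without 1 array, and the 11 UGTs became 14 with array quality weights, 9 with the block and 8 to 11 without 1 array. In *MeGRXC15*-OE against MeGRX360-OE array quality weights gave 1 GST (*GSTF4*) and 1 UGT (*UGT73B1*), a fold over 2 with unadjusted p gave 2 UGTs, the block gave 0 of each, and leaving out 1 array gave 0 to 1 GST and 0 to 0 UGTs. The causes of the other shifts were not tested. Same-numbered arrays had deviations correlated at -0.212 to 0.267, and differently numbered arrays at -0.410 to 0.227. With 3 arrays a group these values cannot decide whether the numbers pair the arrays. In *MeGRXC15*-OE the block left the log2 changes of *GSTU16* and *GSTU18* as they were. It raised their adjusted p from limma to 0.0608 and 0.0541, so these calls depend on how the numbers are treated. As each gene had 1 probe set, choosing the dimmest one gave nothing new. Where leaving out an array leaves 2, and for the 18 genes near background, precision is limited.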

Other observations

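2 genes that were not among the members also differed between lines. *UGT79B1* is a UGT that the symbol rule left out. *UGT79B1*, an anthocyanin xylosyltransferase that the annotation names by another symbol, read 98.5 in *MeGRXC15*-OE line 12 and 18.5 to 24.1 on the other 8 arrays, with a log2 change of 0.93 (SE 0.48, adjusted p = 0.221 from limma) in *MeGRXC15*-OE. *AER*, an alkenal reductase and the only one of 12 listed detoxification genes measured, read 86.1, 58.8 and 127 in *MeGRXC15*-OE, 157, 102 and 106 in MeGRX360-OE and 116, 102 and 99.3 in vector leaves. Its log2 changes were -0.29 (SE 0.27, adjusted p = 0.535) and 0.18 (SE 0.27, adjusted p = 0.733).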
